A study of Mus musculus with 2 samples.

Results

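The tripartite motif (TRIM) family is a set of ubiquitin ligases and related proteins that share an N-terminal RING finger, 1 or more B-box zinc fingers and a coiled coil, and that differ mainly in their C-terminal domain. The RING finger passes ubiquitin from a conjugating enzyme to a target, and the C-terminal domain, most often a PRY-SPRY (B30.2) domain, chooses that target. In macrophages the family is known for members that act on pattern-recognition signalling, for members that bind viral capsids, and for nuclear co-repressors. The family was taken as the genes with a protein-coding transcript and a symbol made of Trim, a number and at most 1 letter from a to e. This rule found 68 of the 21901 genes with a protein-coding transcript, and it used no measured value. Family members under other symbols were left out of the counts and are described separately.

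The RNA came from the nucleoplasmic fraction of primary macrophages grown from bone marrow of C57BL/6J mice. The cells had received lipid A, the endotoxin moiety of bacterial lipopolysaccharide and a TLR4 agonist, at a dose of 100 ng/ml over 90 min. Both samples belong to 1 group, as its 2 biological replicates, with replicate 1 made from 1 µg and replicate 2 from 500 ng of RNA, and both carry the same donor entry in the labels. There were no unstimulated cells, no cytoplasmic fraction and no other time among the samples used here, so nothing below is a response to lipid A, and with 1 group no test between groups could be made. Differences between the libraries are given as a measure of error.

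The libraries held 22669533 and 14939143 estimated counts in the first deposited quantification. In the second deposited quantification they held 30596271 and 27621074. The values in this paragraph are from the first unless the second is named. Short features, with an effective length under 200, took 73.9% of all TPM (transcript abundance scaled to length and to a fixed total per library) in replicate 1 and 57.0% in replicate 2, which lowers the TPM of longer genes by unequal amounts. Ratios between the libraries are therefore given relative to the median gene, whose TPM stood at -0.39 on the log2 scale (replicate 1 over replicate 2). Each of 8 macrophage markers reached 1 TPM in both libraries, among them Lyz2 at 916 and 1103 TPM, in replicates 1 and 2 in that order, as in all pairs of values below. In the first quantification the 3 T cell, 3 erythroid and 3 muscle markers had 0 counts in both libraries. The summed B cell, neutrophil and stromal markers stayed under 1 TPM each there. The second quantification gave more for some of these, such as Cd3d (3.01 and 13.1 TPM) and Pecam1 (3.53 and 13.4 TPM). Others, such as Cd3e, Cdh5 and Myh2, stayed under 1 TPM in it.

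Of the 68 TRIM genes, 28 (41.2%) reached 1 TPM in both libraries, against 39.1% of all genes with a protein-coding transcript. The second quantification of the same reads put 33 members (48.5%) at that level, against 44.5% of all genes. The first quantification is used below unless the second is named. A further 27 members had reads but were under 1 TPM in at least 1 library, and 13 had 0 counts in both. The median over the 68 members was 0.67 and 0.77 TPM, against 0.22 and 0.27 TPM over all genes. Among the 28 members it was 10.9 and 11.7 TPM, against 6.62 and 8.70 TPM over the genes past the same minimum. A member near 1 TPM rested on a median of 66.5 and 37.5 counts, and a count of 0 allows up to 3 counts.

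**Figure D1:**
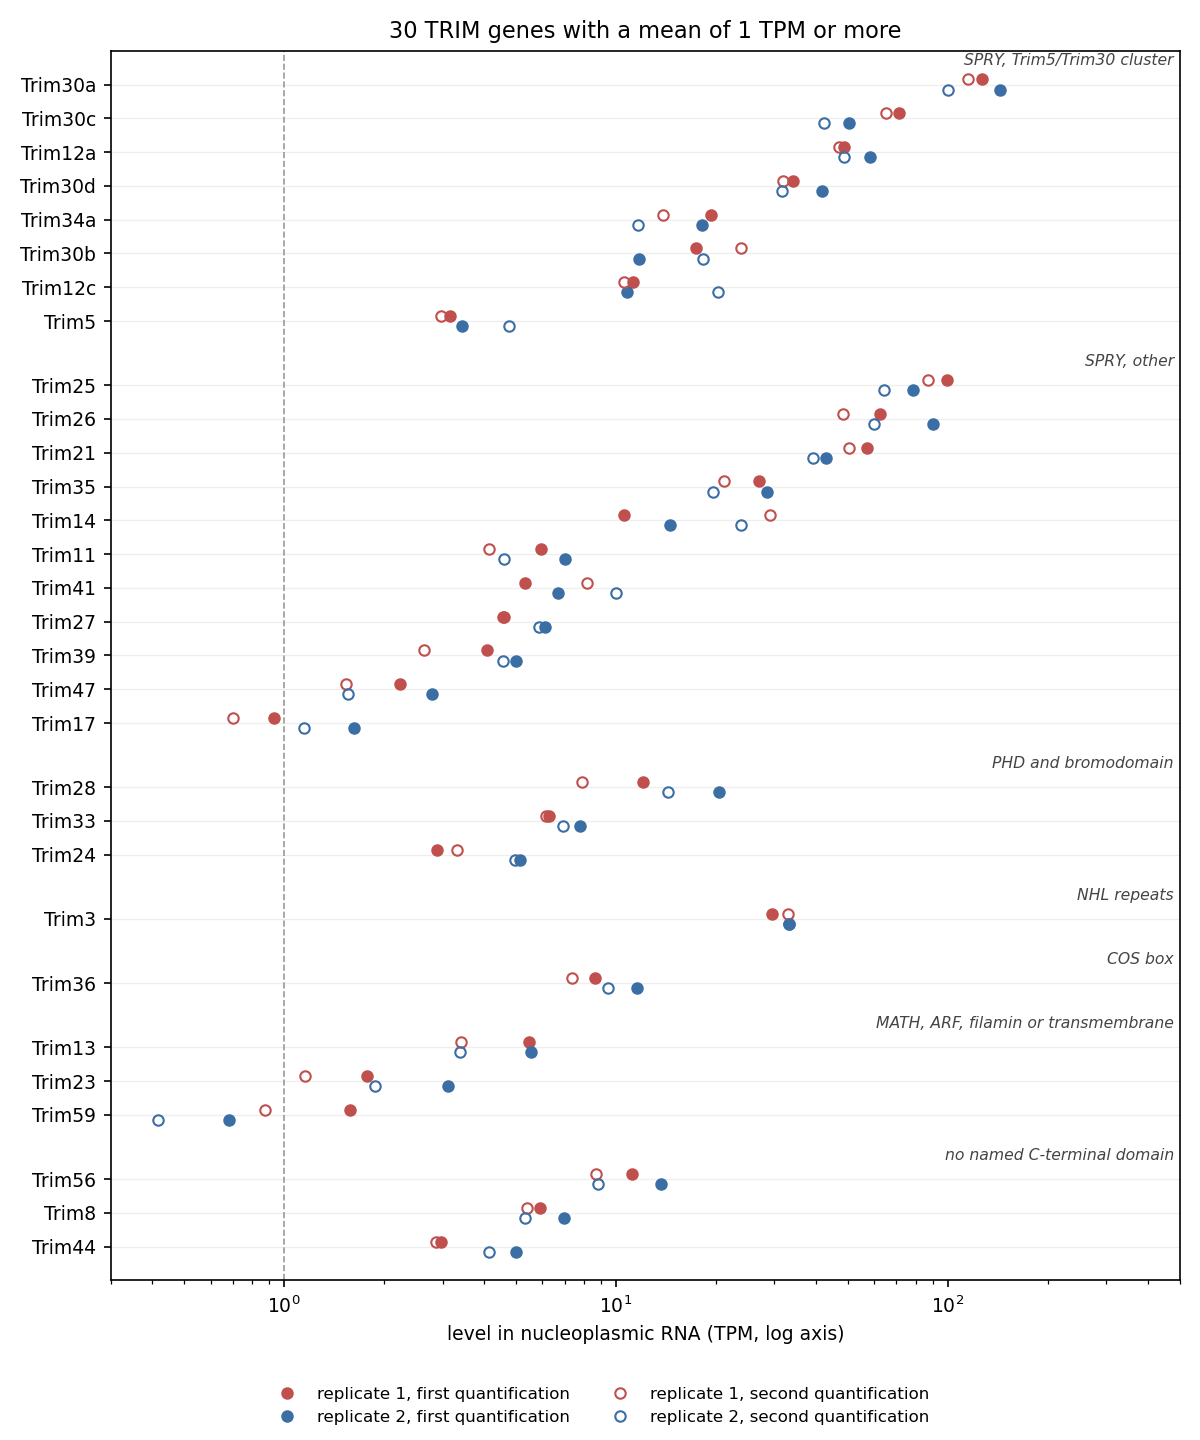
Levels of the 30 TRIM genes with a mean of 1 TPM or more, by C-terminal class, on a log axis of TPM; filled points are the first and open points the second quantification, red for replicate 1 and blue for replicate 2. Genes placed in the SPRY classes hold the 7 highest means, led by Trim30a at 127 and 143 TPM.

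The sum of the family was 707 and 744 TPM (667 and 638 TPM in the second quantification). Its estimated counts summed to 65877 and 35111, which was 0.291% and 0.235% of all counts, so the share of counts was higher in replicate 1 and the sum of TPM higher in replicate 2. Genes placed in the SPRY classes made up most of the TPM. The C-terminal classes were assigned by gene from knowledge of the family, and no protein was checked here. The 10 genes of the Trim5/Trim30 cluster alone held 333 and 339 TPM, which was 47.1% and 45.6% of the family. The other 28 SPRY genes held 40.1% and 38.8%. The PHD and bromodomain co-repressors held 3.02% and 4.5%, the NHL-repeat genes 4.31% and 4.66%, and the COS-box genes 1.23% and 1.63%. In bulk RNA, fewer cells with a transcript and less transcript per cell cannot be told apart.

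The Trim5/Trim30 cluster is a run of paralogues placed in the SPRY class that spans 289 kb of chromosome 7, from Trim6 (chr7:104218793-104235152, plus strand, mm10) to Trim30d (chr7:104470014-104507849, minus strand). It is the mouse counterpart of the region that holds human TRIM5, the retroviral capsid-binding restriction factor. In both libraries 8 of its 10 genes reached 1 TPM, against 39.1% of all genes with a protein-coding transcript. Trim30a (chr7:104409025-104465193, minus strand), which in mouse restrains NF-kB signalling downstream of Toll-like receptors, was the most abundant of the 68 members by TPM. It had 127 and 143 TPM (135 ± 11.5, SD, n = 2), on 13362 and 8130 counts. Trim30c followed in the cluster at 71.5 and 50.3 TPM, then Trim12a at 48.5 and 58.1 TPM and Trim30d at 34.0 and 41.8 TPM. Both libraries thus put Trim30a first in the cluster, whereas Trim30c lay above Trim12a in replicate 1 and below it in replicate 2.

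Trim34a had 19.3 and 18.2 TPM, Trim30b 17.4 and 11.8 TPM, and Trim12c, a mouse relative of TRIM5 linked to type I interferon and NF-kB signalling, 11.3 and 10.8 TPM. Trim5 itself was at 3.15 and 3.43 TPM. The remaining genes of the cluster were low. Trim6, described as making unanchored ubiquitin chains in interferon signalling, had 0.83 and 0.91 TPM, and Trim34b had 0.02 and 0.24 TPM. A pseudogene of the same cluster, Trim30e-ps1, had 0 counts in both libraries.

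**Figure D2:**
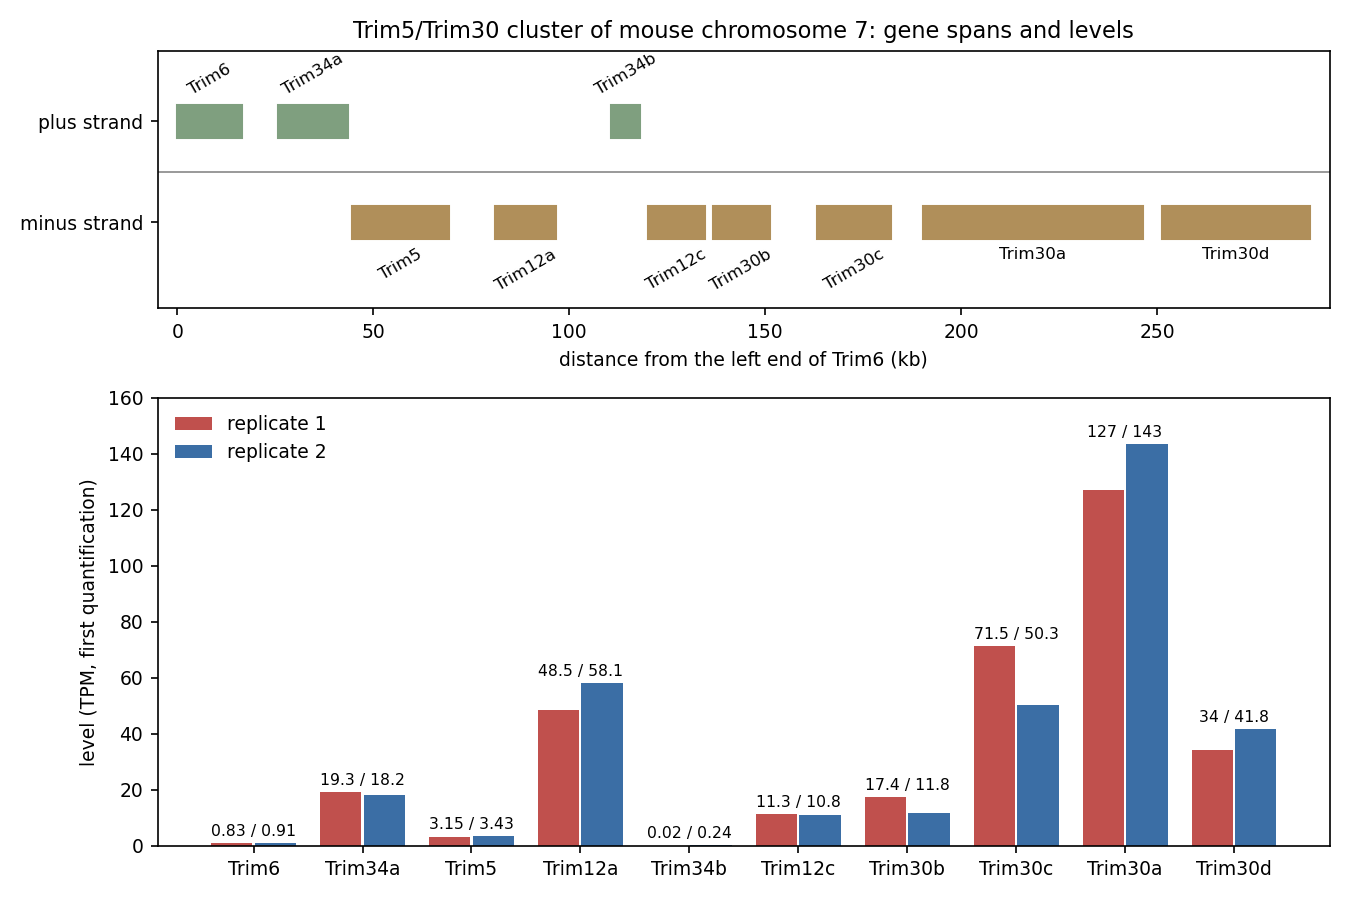
Upper panel, spans of the 10 genes of the Trim5/Trim30 cluster by strand, as distance in kb from the left end of Trim6. Lower panel, their levels in TPM in replicate 1 (red) and replicate 2 (blue) in the same order, with both values printed over the bars; the minus-strand genes at the right end, Trim30c, Trim30a and Trim30d, are 3 of the 4 highest.

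The annotated coding sequences compared here differed in length, with 609 bases in Trim30b, 891 in Trim12a and 1041 in Trim30d, against 1488 in Trim30a and 1491 in Trim5, and whether each encodes a SPRY domain was not checked. Reads of these paralogues can be shared, and the deposited counts of some are fractional. Coding sequences were 98.8% identical between Trim34a and Trim34b, 97.1% between Trim12a and Trim5, 96.6% between Trim12c and Trim5, and 89.9% between Trim30a and Trim30d. Of all 50-base stretches in the transcripts of Trim34b, 56.8% also occurred in the transcripts of another gene. The share was 39.8% for Trim34a, 36.3% for Trim5, 33.0% for Trim12c and 20.8% for Trim12a. It was 7.49% for Trim30d, 6.53% for Trim30a, 0.660% for Trim30c and 0.561% for Trim30b. The split between Trim34a and Trim34b and among Trim5, Trim12a and Trim12c is therefore uncertain, while the levels of Trim30a, Trim30b, Trim30c and Trim30d rest mostly on sequence of their own. For Trim12c in replicate 2, the first quantification gave 10.8 TPM and the second 20.3 TPM.

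The promoters of the cluster are shown because those of 6 of its 10 genes hold a shared element close to a RefSeq start. The interferon-stimulated response element (ISRE), a promoter element of interferon-inducible genes, was searched by its core GAAANNGAAA on both strands, in windows from 250 bases before to 50 bases after each RefSeq start (GRCm38.p6). Of the 68 members, 53 had a window in the table. The core was found for 6 of the 10 cluster genes (7 of their 11 windows) and for 9 of the 53 members in all (17.0%), against 3.99% of 27025 genes in the table. The stretches below run 5′ to 3′ on the strand of the gene, from 250 bases before the start to 30 bases after it, with the core in capitals. In Trim30a and Trim30d it is read as TTTCNNTTTC because it lies on the opposite strand. In Trim30c the capitals mark the 10 bases that align to the core of Trim30a.
Trim30a, chr7:104465164-104465443, minus strand: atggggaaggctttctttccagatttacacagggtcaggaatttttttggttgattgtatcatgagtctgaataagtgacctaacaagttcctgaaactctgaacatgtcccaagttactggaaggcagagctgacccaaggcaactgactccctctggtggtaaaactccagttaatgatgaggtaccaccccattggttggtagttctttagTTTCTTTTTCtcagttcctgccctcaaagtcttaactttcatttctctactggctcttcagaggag
Trim30d, chr7:104507820-104508099, minus strand: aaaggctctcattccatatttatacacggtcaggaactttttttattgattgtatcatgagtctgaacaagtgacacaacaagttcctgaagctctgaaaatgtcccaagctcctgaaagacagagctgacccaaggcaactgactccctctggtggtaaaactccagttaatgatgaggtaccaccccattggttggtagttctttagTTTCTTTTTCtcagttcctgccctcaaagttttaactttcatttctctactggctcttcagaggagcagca
Trim30c, chr7:104400749-104401028, minus strand: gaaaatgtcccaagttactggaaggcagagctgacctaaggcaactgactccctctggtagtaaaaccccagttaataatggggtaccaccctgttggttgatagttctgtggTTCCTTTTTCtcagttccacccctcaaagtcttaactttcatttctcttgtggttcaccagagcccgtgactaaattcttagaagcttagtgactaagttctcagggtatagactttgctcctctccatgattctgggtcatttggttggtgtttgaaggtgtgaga

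Trim30a has a pair of RefSeq windows. In the upstream one, printed here, the core lies 36 to 27 bases before the start, and in the other it lies 2 to 11 bases after the start. In Trim30d it lies 41 to 32 bases before the start. The aligned bases of Trim30c, 137 to 128 bases before its RefSeq start, differ from the core of Trim30a by 1 substitution, T3C, counted from 1 at the 5′ end of the capitals as printed. Trim30c, Trim30b, Trim6 and Trim34b had no match in their windows. The 1 window of Trim30b (chr7:104358597-104358896) lies inside the gene, downstream of its annotated start at 104369884. The bases around that annotated start were not searched, so presence or absence of the core there is not known. In Trim12a and Trim34a the core lies 10 to 19 bases after the start. It lies 29 to 20 bases before the start in Trim12c and 49 to 40 bases before it in Trim5. The match at the other start of Trim30a, those of 4 more cluster genes and those of 2 genes outside the cluster are shown as 30-base sites, again on the strand of the gene, with the core or the run of overlapping cores in capitals.
Trim30a at its other start, chr7:104446104-104446133, minus strand: ttgtttttagTTTCTTTTTCtcagttcctg
Trim12a, chr7:104315466-104315495, minus strand: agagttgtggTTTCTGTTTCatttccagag
Trim12c, chr7:104353359-104353388, minus strand: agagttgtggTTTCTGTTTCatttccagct
Trim5, chr7:104288136-104288165, minus strand: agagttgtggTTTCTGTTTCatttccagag
Trim34a, chr7:104244457-104244486, plus strand: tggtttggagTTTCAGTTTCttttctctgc
Trim21, chr7:102565447-102565476, minus strand: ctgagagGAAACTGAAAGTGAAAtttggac
Trim26, chr17:36836979-36837008, plus strand: cttccgaTTTCACTTTCCTTTTCtcgggcc

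The windows of these paralogues share ancestry and are not independent. Aligned bases were 100% identical between Trim5 and Trim12a (241 bases), 93.9% between Trim5 and Trim12c and 93.6% between Trim30a and Trim30d. Trim21 and Trim26 lie outside the cluster and each carry a pair of overlapping cores. The pair lies 13 to 28 bases after the start in Trim21 and 160 to 145 bases before it in Trim26. The ninth member with a match was Trim2, in 1 of its 5 windows. A kappa-B core, a form of the element bound by NF-kB dimers, was searched as the fixed letters GGGNNNTTCC. This core was found for 1 of the 53 members, Trim28, against 6.31% of all genes. Other forms of the element were not searched. A match is a description of the letters, and no binding was measured here.

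The members listed here for innate immune signalling, all but Trim30a outside the cluster, were mostly detected. Of the 14 listed for this role (Trim30a among them), 11 reached 1 TPM in both libraries, against 39.1% of all genes with a protein-coding transcript. The median over the 14 was 5.68 and 6.82 TPM. The list was chosen with earlier results of these data known. It is not complete, since other members described in such signalling, Trim35 among them, are not on it. Trim25 (chr11:88999376-89020293, plus strand), which ubiquitinates RIG-I and works with the antiviral protein ZAP, had 99.2 and 78.4 TPM (88.8 ± 14.7, SD, n = 2), on 17661 and 7051 counts. Trim26 (chr17:36837134-36859398, plus strand), described as acting on IRF3 and NEMO, had 62.6 and 90.3 TPM. Trim21 (chr7:102557921-102565486, minus strand), a cytosolic antibody receptor, had 56.9 and 43.1 TPM. By TPM of the first quantification, Trim25 lay above Trim26 in replicate 1 and below it in replicate 2, so this measure does not order the pair. In the second quantification Trim25 was the higher in both libraries, at 87.3 and 64.1 TPM, against 48.2 and 59.9 TPM for Trim26. Of the TPM of Trim26 in the first quantification, 11.6% and 13.9% lay on coding transcripts, against 100% for Trim25.

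The other signalling members spanned a lower range. Trim56, described as acting on STING and double-stranded RNA signalling, had 11.2 and 13.6 TPM. Trim14, an adaptor at the mitochondrial protein MAVS, had 10.6 and 14.6 TPM. Trim8, described as activating TAK1, had 5.88 and 6.96 TPM, and Trim13, an endoplasmic reticulum ligase that restrains MDA5, had 5.47 and 5.54 TPM. These 4 genes kept the same order in both libraries except that Trim14 exceeded Trim56 in replicate 2. Trim41 had 5.33 and 6.68 TPM. Trim27, which acts on IKK family kinases, had 4.57 and 6.11 TPM, and Trim23, whose C-terminal domain is an ARF GTPase, had 1.77 and 3.12 TPM.

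Of the signalling members, 3 were below 1 TPM in both libraries. Trim32, described as acting on STING, had 0.62 and 0.87 TPM, and Trim65, described as acting on MDA5, had 0.53 and 0.84 TPM. Trim38, which in other macrophage studies is linked to TAB2 and TRIF turnover, had 0 counts in both libraries and 0.01 and 0.03 TPM in the second quantification. Trim35, an SPRY gene outside this list that is described as acting on TRAF3 and IRF7, was higher than most of it, at 27.0 and 28.4 TPM.

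Targets and partners of these ligases were present in the same RNA. The list held 17 symbols for 16 genes, since it named Cgas also by its older symbol Mb21d1. All 16 genes reached 1 TPM in both libraries, against 39.1% of all genes with a protein-coding transcript, with medians of 11.9 and 15.4 TPM. The RIG-I gene Ddx58, the target of Trim25, had 66.0 and 42.9 TPM, and Zc3hav1, which encodes ZAP, had 63.1 and 66.5 TPM. Tab2, a target of Trim30a, had 63.6 and 89.0 TPM, while Tab3 had 4.53 and 4.06 TPM. Ifih1, which encodes MDA5, reached 453 and 405 TPM, against the low level of Trim65. Mavs was among the lowest at 1.99 and 2.51 TPM. The ubiquitin genes and the activating and conjugating enzymes that supply RING ligases were all detected (19 of 19, against the same 39.1%), with medians of 15.7 and 19.0 TPM. Ube2d3, a conjugating enzyme used by many RING ligases, had 78.4 and 107 TPM, and Ube2n, which builds lysine-63 chains, had 38.3 and 61.2 TPM.

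The nuclear co-repressors of the family, in which a PHD finger and a bromodomain follow the coiled coil, were detected at moderate levels. Trim28 (KAP1), the scaffold that zinc-finger proteins use to recruit histone methylation to retroelements, had 12.1 and 20.5 TPM. Trim33, a regulator of SMAD signalling and of macrophage gene activation, had 6.28 and 7.81 TPM, and Trim24, a nuclear receptor co-regulator, had 2.89 and 5.14 TPM. The remaining gene of the class, Trim66, had 0.07 and 0.04 TPM. All 6 genes listed as repressor partners of Trim28 reached 1 TPM in both libraries, against 39.1% of all genes with a protein-coding transcript. They ran from Cbx5 at 2.30 and 3.0 TPM to Chd4 at 70.2 and 87.1 TPM. The methyltransferase gene Setdb1 had 4.92 and 6.07 TPM.

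In the remaining classes 1 gene usually stood above the rest. Among the 4 NHL-repeat genes, Trim3 had 29.6 and 33.1 TPM, Trim32 and Trim2 were under 1 TPM, and Trim71, a regulator of stem-cell mRNAs, had 0 counts. Among the 8 COS-box genes, which bind microtubules, Trim36 had 8.63 and 11.6 TPM, the neuronal genes Trim9, Trim46 and Trim67 were at 0.55 TPM or less, and Trim42, Trim54, Trim55 and Trim63 had 0 counts. Trim54, Trim55 and Trim63 encode the muscle ring-finger proteins. The muscle markers Acta1, Ckm and Myh2 were also at 0 counts. Trim44, which lacks a RING finger, had 2.96 and 5.01 TPM. Trim10 and Trim58, known from erythroid cells, had 0 counts and 0.09 and 0.38 TPM, with the erythroid markers at 0. The intestinal genes Trim31 and Trim40 had 0 counts as well.

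Family members under other symbols included Mid1 (Trim18), a microtubule-bound ligase, at 56.1 and 53.8 TPM, and Pml (Trim19), the organizer of nuclear bodies, at 21.7 and 12.9 TPM. These levels depended on the quantification: the second gave Mid1 175 and 189 TPM and Pml 46.6 and 19.1 TPM. Mid2 (Trim1) was at 0.17 and 0.03 TPM.

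Summed over the family, transcripts annotated as protein coding held 72.6% and 71.9% of TPM, retained-intron transcripts 20.6% and 17.6%, and processed transcripts 6.74% and 10.3%. A retained-intron transcript is an annotated form that keeps an intron and is not given a coding sequence. For the 30 members whose mean reached 1 TPM, the median coding share was 93.0%, against 67.5% over the 9010 genes past the same minimum. Of these 30 members, 23 (76.7%) had more than 50% of their TPM on protein-coding transcripts, against 70.2% of all such genes. These values depend on the annotation, because 13 of the 30 members (43.3%), against 16.4% of the 9010 genes, have protein-coding transcripts alone and can only be at 100%. Over the other 17 members the median was 61.1%, against 60.1% over 7529 genes with an annotated transcript of another type, and 10 of the 17 (58.8%) were past 50%, against 64.4% of those genes. This restriction was added after the data were seen. The second quantification gave medians of 67.3% for the members and 54.4% for all genes, and with the same restriction 38.8% for 22 members and 44.9% for 8661 genes. The 13 members with an annotated retained-intron transcript had a median of 37.7% of TPM on it, against 34.6% over 5805 genes.

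Within the family the shares ran from 100% coding in 13 members, Trim25, Trim30c, Trim30d and Trim34a among them, to under 20% in Trim26 and Trim28; the 13 are the members with no other transcript type annotated. Trim26 had 11.6% and 13.9% of its TPM on coding transcripts, 48% and 34.4% on retained-intron transcripts, and 40.4% and 51.7% on a single processed transcript, Trim26-209. Trim28 had 19.5% and 14.8% on its 1 coding transcript and 61.3% and 55.1% on retained-intron transcripts. The retained-intron share was 68.1% and 67.8% in Trim3, 65.6% and 56.3% in Trim21, and 55.0% and 55.6% in Trim24. In these 5 genes the coding transcripts held a minority of TPM in both libraries.

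The coding level of a gene can therefore be far below its total. Trim21-201, the main coding transcript of Trim21, had 11.0 and 12.7 TPM, against 21.5 and 16.5 TPM for Trim21-205, a retained-intron transcript of 634 bases. TPM is scaled to length, so a short transcript needs few reads for a high share. By estimated counts, a measure added after the data were seen, the coding share was 75.9% and 82.1% in Trim21, 70.2% and 66.3% in Trim3 and 59.8% and 50.8% in Trim28. It was 61.2% and 60.2% in Trim24, but stayed at 12% and 12.9% in Trim26. By counts, Trim12a (41.3% and 39.5%) and Trim39 (42.1% and 38.1%) also had less than 50% on coding transcripts. Trim30a-203, a retained-intron transcript of 314 bases, took 14.7% and 7.58% of the TPM of Trim30a but 65 and 20 of its counts. The median retained-intron share by counts was 21.1% over the 13 members, against 21% over all genes.

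**Figure D3:**
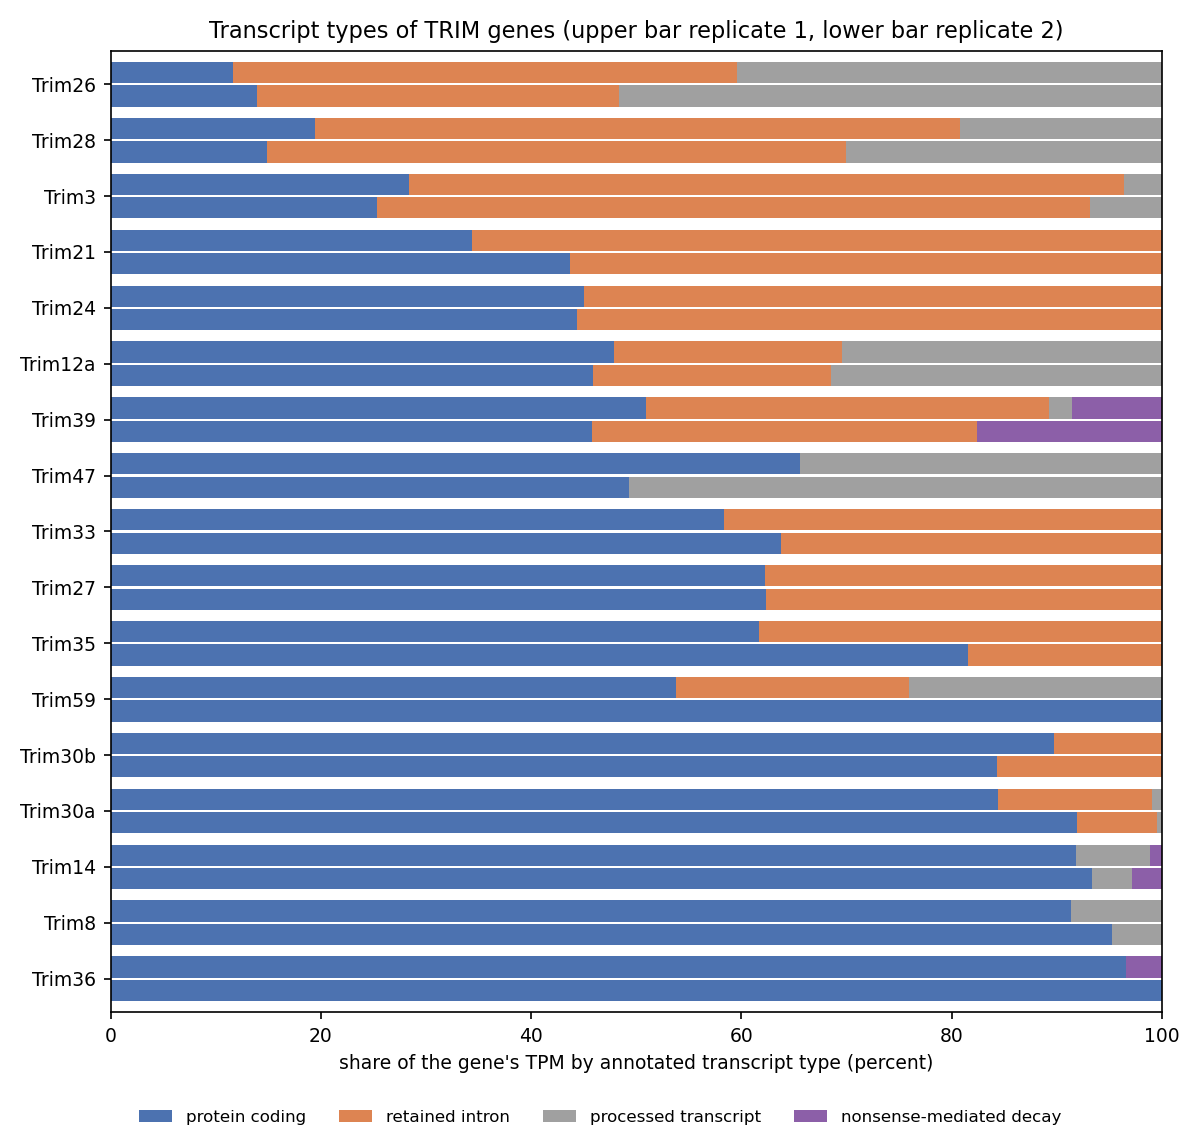
Share of each gene's TPM by annotated transcript type for the 17 TRIM genes with a mean of 1 TPM or more and less than 100% on coding transcripts; upper bars are replicate 1 and lower bars replicate 2. Trim26, Trim28, Trim3, Trim21, Trim24 and Trim12a had less than 50% on coding transcripts in both libraries.

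After centring on the median gene, levels lay within 1.5-fold between the libraries for 25 of the 30 members whose mean reached 1 TPM. The set depends on the centring. Before it, Trim28 (12.1 and 20.5 TPM) lay past 1.5-fold and Trim25 (99.2 and 78.4 TPM) within it. Relative to the median gene, above which as many genes lie as below it, the log2 ratio of replicate 1 over replicate 2 had a median of 0.11 over these 30, with 21 higher in replicate 1. Scaling counts by TMM in place of TPM gave 0.12, and the second quantification gave 0.34 over the same 30 genes. Past 1.5-fold, 5 members were higher in replicate 1, against 10.6% of 9010 genes, and 0 were lower, against 6.09% of these genes. With TMM the counts were 4 and 0, against 8.66% and 3.81% of the same genes. With 1 library for each value they carry no test.

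Among members with a mean count of 100 or more, those that differed most were Trim30b at 1.93-fold, Trim30c at 1.86-fold, Trim21 at 1.73-fold and Trim25 at 1.65-fold, all higher in replicate 1 after centring. Scaling by TMM gave 1.94-fold for Trim30b, 1.89-fold for Trim30c, 1.66-fold for Trim25 and just under 1.5-fold for Trim21. Trim59, below that minimum with 85 and 32 counts, was at 2.81-fold by TPM and 1.73-fold by TMM. In the other direction, Trim24 (-0.42 on the log2 scale), Trim23 (-0.40), Trim28 (-0.37) and Trim44 (-0.35) were lower in replicate 1, none past 1.5-fold after centring.

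Relative to the median gene, all 8 cluster genes with a mean of 1 TPM or more were higher in replicate 1, with a median log2 ratio of 0.36. Before centring, the TPM of Trim30a, Trim12a, Trim30d and Trim5 was lower in replicate 1. By the centring, as many genes lie above 0 as below it. Of the 8, Trim30b and Trim30c passed 1.5-fold, against 10.6% of 9010 genes. Trim30d, Trim12a, Trim30a and Trim5 lay between the quartiles of those genes (-0.25 and 0.29). Reads can be shared among Trim5, Trim12a and Trim12c, so the 8 values are not all independent. TMM scaling gave a median of 0.39 with 8 of 8 higher, and the second quantification 0.47 with 6 of 8 higher. The other 22 members had a median of 0.08, with 13 higher. In an interferon-response list, 17 of 17 genes were higher in replicate 1 after centring, with a median of 0.98. Before centring, the TPM of Oasl1, Oasl2 and Stat2 was lower in replicate 1. Past 1.5-fold were 11 of the 17, Ifit1 and Cxcl10 among them, against the same 10.6% of 9010 genes. The amount of starting RNA also differed between the libraries. The part of either in the ratios of the TRIM genes was not tested. The gene lists and the cluster were chosen with earlier results of these data known.

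**Figure D4:**
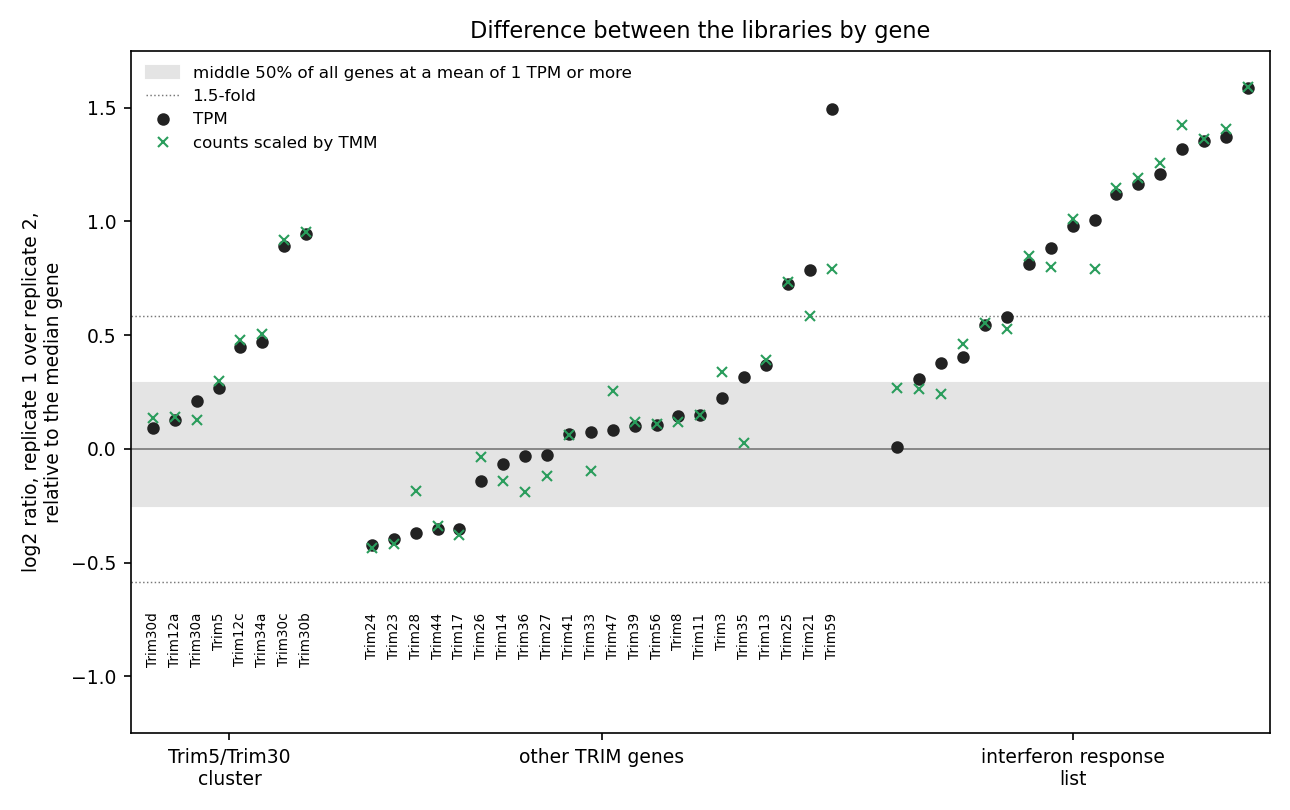
Log2 ratio of replicate 1 over replicate 2, relative to the median gene, for the TRIM cluster (8 genes), the other TRIM genes with a mean of 1 TPM or more (22) and the interferon-response list (17); dots are TPM, crosses TMM-scaled counts, the band is the middle 50% of all genes (-0.25 to 0.29) and dotted lines mark 1.5-fold. Trim30b, Trim30c, Trim25, Trim21 and Trim59 lie above the upper dotted line by TPM.

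Levels of single members differed between the quantifications to varying degrees. Trim30a had 127 and 143 TPM in the first and 115 and 100 TPM in the second. The 28 members past 1 TPM in both libraries of the first quantification passed in the second too, and Trim6, Trim37, Trim52, Trim63 and Trim65 passed in the second alone. Trim52 had 0 counts in the first, against 4.14 and 5.96 TPM in the second, of which 4.12 and 5.92 TPM lay on the processed transcript Trim52-202. Trim63 had 0 counts in the first and 1.74 and 3.95 TPM in the second, none of it on a coding transcript. In the second quantification the muscle marker Ckm had 0.90 and 1.52 TPM, while Myh2 was at 0 and Acta1 at 0 and 0.04 TPM. Neither Trim52 nor Trim63 shares exons with another annotated gene. Why the quantifications differ there was not tested.

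Trim6 had 0.83 and 0.91 TPM in the first quantification and 2.96 and 4.31 TPM in the second. Trim65 had 0.53 and 0.84 TPM in the first and 1.57 and 3.20 TPM in the second. Trim65 shares 225 exonic bases with Trim47 on the same strand. Trim14 had 10.6 and 14.6 TPM in the first and 29.1 and 23.9 TPM in the second, where 16.3 and 9.61 TPM lay on Trim14-205, a processed transcript of 377 bases. Trim14 shares 1356 exonic bases (31.3%) with Nans on the opposite strand, and Trim17 shares 708 with Hist3h2a on its own strand, so their levels are uncertain. The strand setting of the counting is not given in the sources used here.

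**Figure D5:**
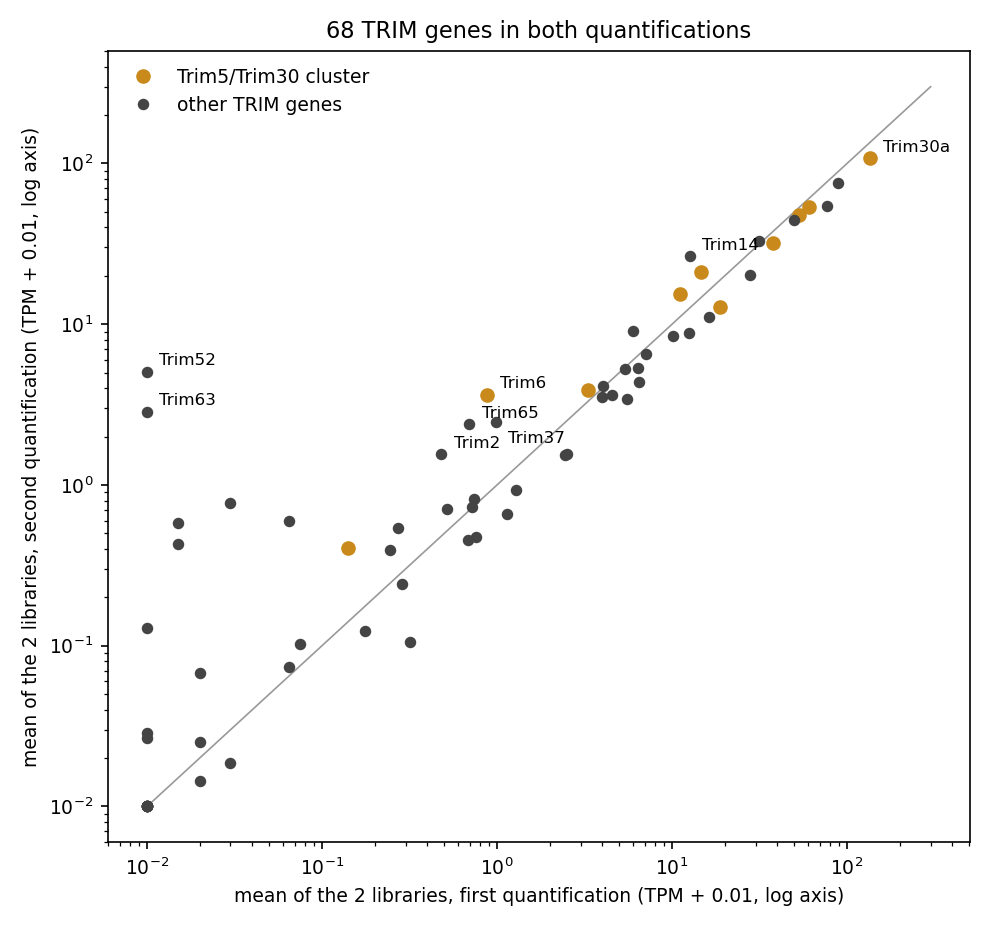
Mean TPM of the 2 libraries in the first (horizontal) and second (vertical) quantification for the 68 TRIM genes, with 0.01 added and both axes logarithmic; the line marks equal values. Trim52 and Trim63 lie at the left edge with 0 in the first quantification.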

How the data were processed

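Per the file headers and accompanying notes, the authors made 1 quantification from reads aligned to transcripts (mm10, GENCODE release M21) and a second one from 10 read files per library. The aligner is not given in the sources used here, nor are the quantifiers. The authors' estimated counts are deposited without normalization and can be fractional. The deposited TPM are length-scaled shares of all features. The deposited FPKM served as an alternative. The deposited isoform percent values, the interval bounds of TPM (signal) and the effective lengths were not used for levels; effective length only marked short features.

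Levels are those of the deposited gene table, and shares by transcript type are sums of transcript TPM. Ratios are log2(TPM + 0.1) of replicate 1 minus replicate 2, less the median over genes with a mean of 1 TPM or more. The added 0.1 pulls the ratio of low genes towards 0 before that median is subtracted. A gene at 0 in both libraries, such as Trim10, therefore ends at 0.39, and ratios of low genes are biased towards replicate 1. Alternatives were TMM (edgeR 4.0.16, prior count 2) and DESeq2 1.42.0 size factors, on counts, in R 4.3.3, with no fit and no p-value. The TMM and DESeq2 ratios were tested on simulated counts with known changes, and the TPM ratio was not. Other steps used Python 3.11.15 with pandas 2.3.3 and Biopython 1.88. Identity of coding sequences and promoter windows came from global alignment, and promoter sequences from the RefSeq table of GRCm38.p6. Protein sequences were not used here.

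All members could be named. Values per library were given for the 12 highest members, the cluster, the signalling list, the 4 largest differences between libraries in each direction (mean count of 100 or more), the 4 highest retained-intron shares and the 4 largest differences between quantifications. Other values were named after they were seen. The members and lists were chosen with earlier results of these data known. The replicates share a donor entry, so their spread may be partly technical. A floor of 3 counts reflects counting error alone, because molecular identifiers are not mentioned.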

Additional observations from a re-analysis of the deposited data

How the results depend on the processing

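No paired analysis was possible because the samples form 1 group. Of 53 recomputed values, those that moved or turned were these. The second quantification gave a median over all members of 1.10 TPM in place of 0.72 TPM, 3 members past 1.5-fold lower in replicate 1 in place of 0 (against 11.4% of 10590 genes), a median coding share of 67.3% and a median retained-intron share of 49.6%; the cause was not tested. Its own filter kept 34 members, with a median log2 ratio of 0.14, and 33 at 1 TPM or more. FPKM put the median at 0.958, and TPM rescaled to genes with a protein-coding transcript put it at 2.48, with 39 members at 1 TPM or more. With no minimum on mean TPM the centre becomes 0, since 7577 genes are at 0 in both libraries, so ratios are no longer centred: the median was -0.12 over the members and -0.12 over the cluster, with 2 members past 1.5-fold higher and 12 lower in replicate 1. Shares of estimated counts gave 99.5% coding and 21.1% retained intron. Leaving out genes with coding transcripts alone gave a median coding share of 61.1% and 10 members past 50%, since it removes 13 members fixed at 100%. Leaving out replicate 1 or replicate 2, the coding share ranged from 91.6 to 97.6%, the retained-intron share from 36.2 to 38.3%, the median TPM from 0.67 to 0.77 and the members at 1 TPM or more from 29 to 31. TMM, DESeq2 size factors, a pseudocount of 1 and a mean of 5 TPM or more kept the medians and counts of ratios close. Members below about 1 TPM rest on few counts, and paralogue splits are limited by shared sequence.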

Other observations

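In the second quantification some genes of other cell types also had levels that the first listed at or near 0. The T cell gene Cd3d had 0 counts in the first quantification and 3.01 and 13.1 TPM in the second, while Cd3e had 0.04 and 0.02 TPM and Cd3g 0.14 and 0.39 TPM there. The endothelial gene Pecam1 had 0.21 and 0.60 TPM in the first and 3.53 and 13.4 TPM in the second, while Cdh5 had 0.02 and 0.08 TPM in the second. The B cell gene Ms4a1 had 0.03 and 0.04 TPM in the first and 0.95 and 1.03 TPM in the second. For Cd3d, Pecam1 and Ms4a1, as for Trim52 and Trim63, the second quantification was the higher one.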
